A study of Homo sapiens with 12 samples.

Results

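The epidermal growth factor receptor (EGFR) family, its ligands and its inhibitors were followed in HT29 cells, an established human colorectal cancer line, during exposure to methotrexate. The 10 genes listed were chosen by name, with earlier results of these data known. They were the receptors EGFR, ERBB2 and ERBB3, the ligands AREG, EREG, HBEGF, TGFA and BTC, and the inhibitors ERRFI1 and LRIG1. For 9 of these 10 genes a probe set carried the gene's symbol, 1 probe set per gene, among 18377 genes tested on the arrays. AREG, which encodes the ligand amphiregulin, was not analysed here. Gene expression was measured on 12 Affymetrix human gene arrays in 4 groups of 3 biological replicates. The groups were untreated HT29 cells and HT29 cells given 70 nM methotrexate (MTX), an antifolate that blocks dihydrofolate reductase, for 8, 24 or 48 h. The protocol counts the untreated group as 0 h, so time in culture and treatment changed together and cannot be told apart. All groups were of the same cell line, grown in F12 medium with serum.

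Receptors of this family are tyrosine kinases of the cell surface that act in pairs. The ligands are made as membrane proteins, are cut free by proteases and bind EGFR, and some of them also bind ERBB4. ERBB2 has no known ligand and ERBB3 has little kinase activity of its own, so both signal through their partners, ERBB3 after binding neuregulins. In the intestinal epithelium the pathway is known for driving proliferation and repair through RAS, ERK and PI3K, and ERRFI1 and LRIG1 limit it at the receptor.

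Values are log2 ratios to the median of the 3 control arrays, a centring that was found in the deposited values, so differences were measured and levels were not. Whether HT29 cells express a gene more than another gene, or express the defining markers of colon epithelium at all, could not be read from them. A difference counts as called at an adjusted p under 0.05 by limma, with Benjamini-Hochberg adjustment over all 18377 genes. The SE given is limma's, with n = 3 arrays per group. The labels call the replicates biological without saying whether they were separate cultures, so the p-values measure the spread between these arrays. In RNA from whole cultures, fewer cells expressing a gene and less RNA per cell cannot be told apart. The replicate arrays of a group differed by a root mean square of 0.09 to 0.21 over genes, and the highest values were those of 48 h replicate 3 against its group.

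The ligand gene HBEGF changed most among these genes, and EREG and the inhibitor gene ERRFI1 followed with late falls. The 250 bases before the start site of these 3 genes are shown because their expression moved most among the genes that had such a sequence, and capitals mark motif matches. The sequences are from RefSeq on build GRCh38.p14, read 5′ to 3′ on the gene's strand. HBEGF lies on the minus strand at chr5:140346604-140346853, EREG on the plus strand at chr4:74364895-74365144 and ERRFI1 on the minus strand at chr1:8026310-8026559.
HBEGF: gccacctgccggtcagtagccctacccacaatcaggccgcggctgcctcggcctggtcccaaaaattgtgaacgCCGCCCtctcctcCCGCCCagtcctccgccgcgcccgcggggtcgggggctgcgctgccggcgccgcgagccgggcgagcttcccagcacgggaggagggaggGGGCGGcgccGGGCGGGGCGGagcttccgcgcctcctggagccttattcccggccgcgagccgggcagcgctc
EREG: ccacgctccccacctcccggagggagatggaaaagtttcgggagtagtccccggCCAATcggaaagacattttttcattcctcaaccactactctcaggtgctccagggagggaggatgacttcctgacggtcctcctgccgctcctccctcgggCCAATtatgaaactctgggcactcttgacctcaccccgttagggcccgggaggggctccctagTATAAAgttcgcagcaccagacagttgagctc
ERRFI1: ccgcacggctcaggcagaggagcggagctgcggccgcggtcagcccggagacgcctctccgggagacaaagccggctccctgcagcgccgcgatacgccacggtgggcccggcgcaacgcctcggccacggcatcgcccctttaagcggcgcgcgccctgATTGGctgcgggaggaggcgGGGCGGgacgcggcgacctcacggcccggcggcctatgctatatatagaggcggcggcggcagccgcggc

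The 3 sequences differed in the motifs they held. The HBEGF sequence had 5 matches to the SP1 GC box (GGGCGG, either strand), and the last 2 of them overlap by their end bases. At least 1 match was present in 42.6% of the 35116 start sites in the table, and at least 5 in 4.1%. The EREG sequence had no GC box, but had 2 CCAAT boxes (CCAAT), 196 and 95 bases before the start, and a TATA box (TATAAA) 32 bases before it. All start sites held a CCAAT box in 32.0% of cases and a TATA box in 10.7%. The ERRFI1 sequence had 1 CCAAT box on the opposite strand, 90 bases before the start, and 1 GC box at 70 bases. None of the 3 sequences held the AP-1 site (TGANTCA), the cAMP response element (TGACGTCA), the E-box (CACGTG) or the amino acid response core (TGATGCAA), which were present in 6.6%, 1.6%, 6.3% and 0.8% of start sites. The G and C content was 76.4% for HBEGF, 58.0% for EREG and 75.2% for ERRFI1, against a median of 58.0% over all start sites. Only the letters given were searched, with N for any base, and variants of a motif were not counted. A match is a description of letters, and its part in expression was not tested.

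Across the time course, the F test of limma called 8 of the 9 measured genes as different in at least 1 group, and ERBB2 did not pass (adjusted p = 0.130). Of all genes tested, 38.8% passed that test. The range between the highest and lowest group mean was 1.46 for HBEGF, in the 99.4th percentile of all genes, and between 0.57 and 0.63 for EREG, ERRFI1 and ERBB3. It was 0.32 to 0.40 for LRIG1, EGFR, BTC and TGFA and 0.16 for ERBB2, while the median gene had a range of 0.18.

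**Figure D1:**
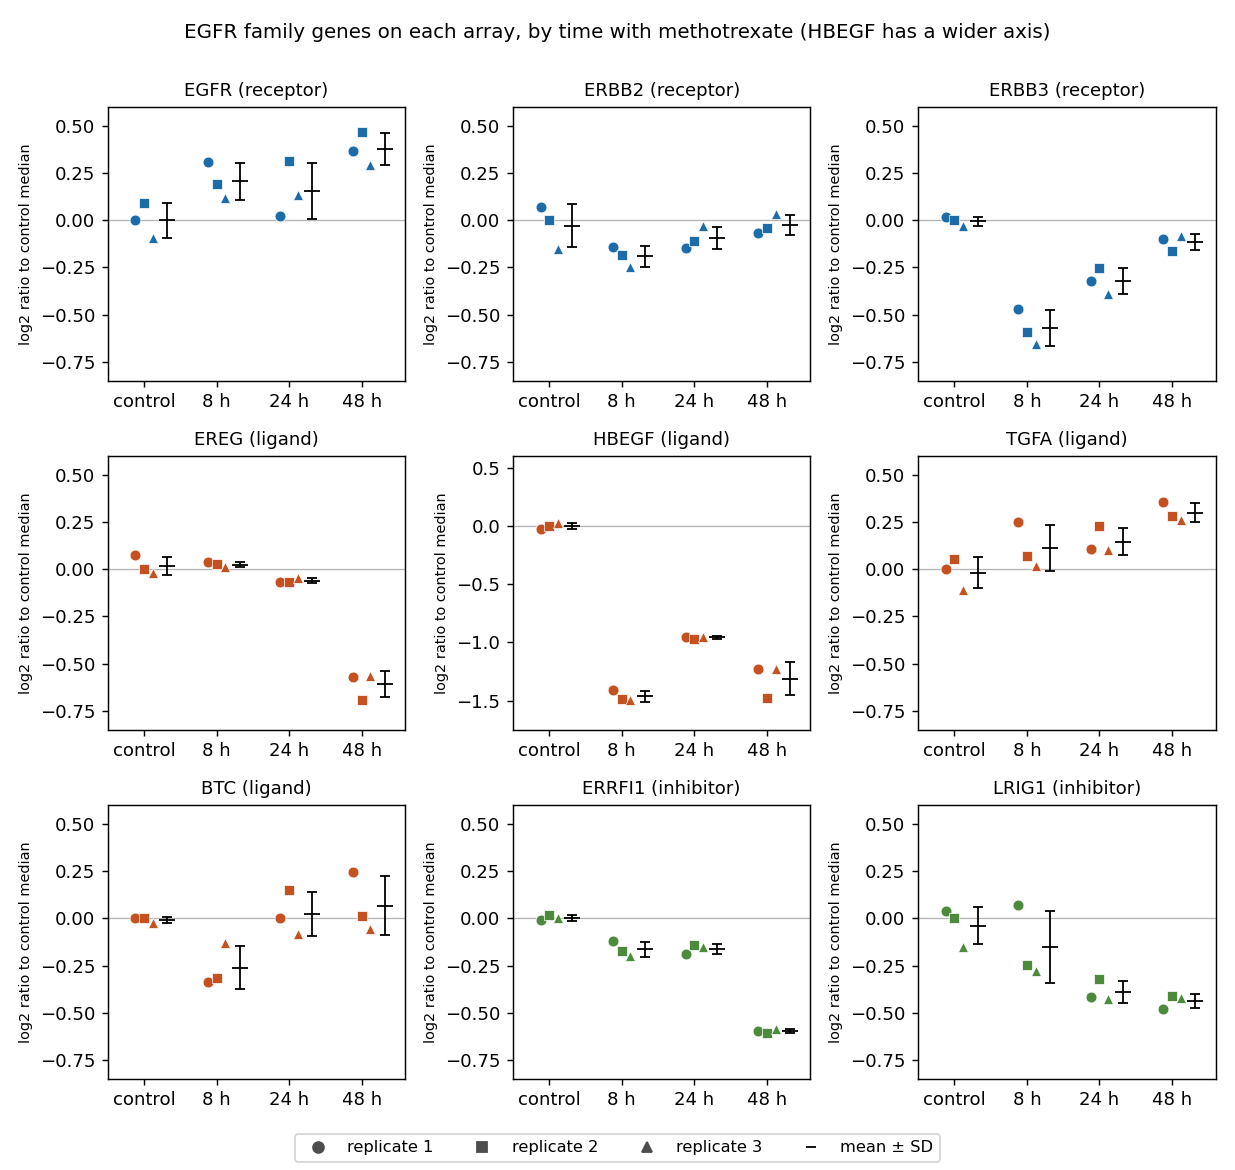
Log2 ratio to the control median on each of the 12 arrays, by group, for the 9 measured genes. Points are arrays with a symbol for each replicate number, and bars are the mean ± SD of 3 arrays. All 9 treated HBEGF values lie between -1.49 and -0.95, while the 3 control values lie between -0.02 and 0.03.

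Among the receptors, ERBB3 fell early and then approached the control, EGFR was higher at 48 h, and ERBB2 was not called in any comparison, although some alternatives called it. ERBB3, the kinase-poor receptor of neuregulins, read 0.02, 0.00 and -0.03 on the control arrays, and -0.47, -0.59 and -0.66 after 8 h. It read -0.32, -0.26 and -0.39 after 24 h, and -0.10, -0.16 and -0.08 after 48 h. The 4 groups did not overlap, and their order was 8 h, 24 h, 48 h and control from low to high. ERBB3 was 1.48-fold lower than control at 8 h (log2 difference -0.57, SE 0.06, adjusted p = 9.63e-06) and 1.25-fold lower at 24 h (-0.32, SE 0.06, adjusted p = 0.00147). At 48 h the difference was -0.11 (SE 0.06, adjusted p = 0.188), and its 95% interval ran from -0.23 to 0.01. With array weights it was called as lower (-0.15, adjusted p = 0.00501). ERBB3 rose from 8 to 24 h (0.25, SE 0.06, adjusted p = 0.00606) and from 24 to 48 h (0.21, SE 0.06, adjusted p = 0.0316). The rise after 24 h was lost without 24 h replicate 1 or 3, without 48 h replicate 1 or 3 (adjusted p = 0.0638 to 0.135), and in a fit of only these 2 groups (adjusted p = 0.0769).

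EGFR, the receptor that these ligands bind, read 0.00, 0.09 and -0.09 in controls, and 0.31, 0.19 and 0.12 after 8 h. It read 0.02, 0.31 and 0.13 after 24 h and 0.37, 0.47 and 0.29 after 48 h. All 8 h and 48 h arrays lay above the controls, whereas 1 of the 24 h arrays lay among them. At 48 h EGFR was 1.30-fold higher than control (0.38, SE 0.08, adjusted p = 0.00336). At 8 h the difference was 0.21 (SE 0.08, adjusted p = 0.0849) and at 24 h it was 0.16 (SE 0.08, adjusted p = 0.237). The difference at 8 h passed without 24 h replicate 2, which is outside the comparison (adjusted p = 0.0478), and in a fit of only these 2 groups (adjusted p = 0.0473).

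ERBB2, the partner receptor without a ligand, read 0.07, 0.00 and -0.15 in controls, and -0.14, -0.18 and -0.25 after 8 h. It read -0.15, -0.11 and -0.03 after 24 h and -0.07, -0.04 and 0.03 after 48 h. The lowest control array lay within the range of the 8 h arrays, so these groups overlapped. The difference at 8 h was -0.16 (SE 0.06, adjusted p = 0.0776). It was called with array weights (-0.19, adjusted p = 0.007), without control replicate 3 (adjusted p = 0.0166) and with each array centred on its median (adjusted p = 0.0385). At 48 h ERBB2 differed from control by 0.00 (SE 0.06), with a 95% interval from -0.13 to 0.14. All 48 h arrays lay above the 8 h arrays, by 0.16 on average (SE 0.06, adjusted p = 0.0608). That difference was called with arrays centred (0.0341), with array weights (0.00695), and without control replicate 1 (0.0497) or 3 (0.0315).

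Of the 4 measured ligand genes, HBEGF was lower than control at every time, and EREG fell between 24 and 48 h. TGFA was higher than control at 48 h, and BTC was lower at 8 h. HBEGF encodes heparin-binding EGF-like growth factor, a ligand of EGFR and ERBB4. It read -0.02, 0.00 and 0.03 on the control arrays, and -1.41, -1.49 and -1.49 after 8 h. It read -0.95, -0.97 and -0.95 after 24 h, and -1.23, -1.48 and -1.23 after 48 h. No treated array came near the controls, the 24 h arrays lay above all other treated arrays, and the 8 h and 48 h groups overlapped. HBEGF was 2.76-fold lower than control at 8 h (-1.46, SE 0.06, adjusted p = 6.70e-09), 1.94-fold lower at 24 h (-0.96, SE 0.06, adjusted p = 3.90e-07) and 2.49-fold lower at 48 h (-1.31, SE 0.06, adjusted p = 1.18e-08). Among all genes it had the 41st, 85th and 43rd largest fall at these times.

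The HBEGF values also differed between the treated groups. Expression rose from 8 to 24 h by 0.50 (SE 0.06, adjusted p = 9.22e-05) and fell from 24 to 48 h by 0.36 (SE 0.06, adjusted p = 0.00307). The 48 h group was 0.15 above the 8 h group (SE 0.06, adjusted p = 0.0955), and this passed only without 48 h replicate 2 among the arrays left out in turn (0.23, adjusted p = 0.00419). That array was the lowest of its group, and the within-group SD of HBEGF was 0.05 at 8 h, 0.01 at 24 h and 0.14 at 48 h.

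EREG encodes epiregulin, a ligand of EGFR and ERBB4 made by intestinal epithelium and many colorectal cancers. It read 0.07, 0.00 and -0.02 in controls, 0.04, 0.03 and 0.01 after 8 h, and -0.07, -0.07 and -0.04 after 24 h. After 48 h it read -0.57, -0.69 and -0.57, below all other arrays. EREG was 1.54-fold lower than control at 48 h (-0.63, SE 0.05, adjusted p = 8.20e-07), and the fall from 24 to 48 h was -0.55 (SE 0.05, adjusted p = 2.07e-05), the 46th largest of all genes. At 8 h the difference from control was 0.01 (SE 0.05, 95% interval -0.10 to 0.11) and at 24 h it was -0.08 (SE 0.05, adjusted p = 0.337), although the 24 h arrays lay below all controls.

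TGFA encodes transforming growth factor alpha, a ligand of EGFR. It read 0.00, 0.05 and -0.11 in controls, 0.25, 0.07 and 0.02 after 8 h, 0.11, 0.23 and 0.10 after 24 h, and 0.36, 0.28 and 0.26 after 48 h. All 24 h and 48 h arrays lay above the controls, and the 8 h arrays overlapped them. At 48 h TGFA was 1.25-fold higher than control (0.32, SE 0.07, adjusted p = 0.00311). The differences at 8 h (0.13, SE 0.07, adjusted p = 0.203) and at 24 h (0.17, SE 0.07, adjusted p = 0.122) did not pass. At 48 h TGFA lay 0.19 above its 8 h group (SE 0.07, adjusted p = 0.0504), which passed in 7 alternatives, among them without control replicate 3, 8 h replicate 1, 24 h replicate 2 or 48 h replicate 3 (adjusted p = 0.00943 to 0.0485).

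BTC encodes betacellulin, a ligand of EGFR and ERBB4. It read 0.00, 0.00 and -0.03 in controls, -0.34, -0.31 and -0.13 after 8 h, 0.00, 0.15 and -0.08 after 24 h, and 0.25, 0.01 and -0.06 after 48 h. The 8 h arrays lay below all others, and the other 3 groups overlapped. BTC was 1.19-fold lower than control at 8 h (-0.25, SE 0.08, adjusted p = 0.0419). Leaving out any 1 control array, 8 h replicate 1 or 2, 24 h replicate 1 or 48 h replicate 2 ended this call (adjusted p = 0.0520 to 0.139), and with each array centred (0.0504). BTC rose from 8 to 24 h (0.28, SE 0.08, adjusted p = 0.0284), a call that ended when 8 h replicate 1 or 2 or 24 h replicate 1 or 2 was left out (adjusted p = 0.0654 to 0.113). It was higher at 48 h than at 8 h (0.33, SE 0.08, adjusted p = 0.00803).

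EREG, AREG and BTC are neighbouring protein-coding genes on chromosome 4 in RefSeq, with EPGN, the gene of the ligand epigen, on the other side of EREG. The 48 h differences from control along this row were 0.00 for EPGN (SE 0.04, adjusted p = 0.974), -0.63 for EREG and 0.08 for BTC (SE 0.08, adjusted p = 0.614). PARM1, which follows BTC, rose by 0.46 at 48 h (SE 0.08, adjusted p = 0.00110). Of the 4 measured genes of this row, EREG fell at 48 h, PARM1 rose and the other two were not called.

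Both inhibitor genes were lower than control after 24 and 48 h. ERRFI1 encodes MIG6, an ERK-induced protein that binds the EGFR kinase domain and blocks it. It read -0.01, 0.02 and 0.00 in controls, -0.12, -0.17 and -0.20 after 8 h, -0.19, -0.14 and -0.15 after 24 h, and -0.60, -0.61 and -0.58 after 48 h. The 8 h and 24 h arrays formed an overlapping range below the controls, and the 48 h arrays lay below both. ERRFI1 was 1.12-fold lower than control at 8 h (-0.17, SE 0.04, adjusted p = 0.00957), 1.12-fold lower at 24 h (-0.16, SE 0.04, adjusted p = 0.0157) and 1.51-fold lower at 48 h (-0.60, SE 0.04, adjusted p = 4.07e-07). The call at 24 h was lost without control replicate 2 (adjusted p = 0.0641) or 24 h replicate 1 (0.0732). From 24 to 48 h ERRFI1 fell by 0.43 (SE 0.04, adjusted p = 3.88e-05), and between 8 and 24 h it differed by 0.00 (SE 0.04, 95% interval -0.09 to 0.09).

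LRIG1 encodes a membrane protein that promotes the breakdown of these receptors and marks stem cells of the intestinal crypt. It read 0.04, 0.00 and -0.15 in controls and 0.07, -0.25 and -0.28 after 8 h. It read -0.41, -0.32 and -0.43 after 24 h and -0.48, -0.41 and -0.42 after 48 h. The 8 h group was split, with replicate 1 above all controls and the other two below them. LRIG1 was 1.28-fold lower than control at 24 h (-0.35, SE 0.08, adjusted p = 0.0105) and 1.32-fold lower at 48 h (-0.40, SE 0.08, adjusted p = 0.00290). The call at 24 h was lost without control replicate 1 (adjusted p = 0.0501). At 8 h the difference was -0.11 (SE 0.08, adjusted p = 0.407). It was called without 8 h replicate 1 (-0.23, adjusted p = 0.0236) and with array weights (-0.20, adjusted p = 0.0181).

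**Figure D2:**
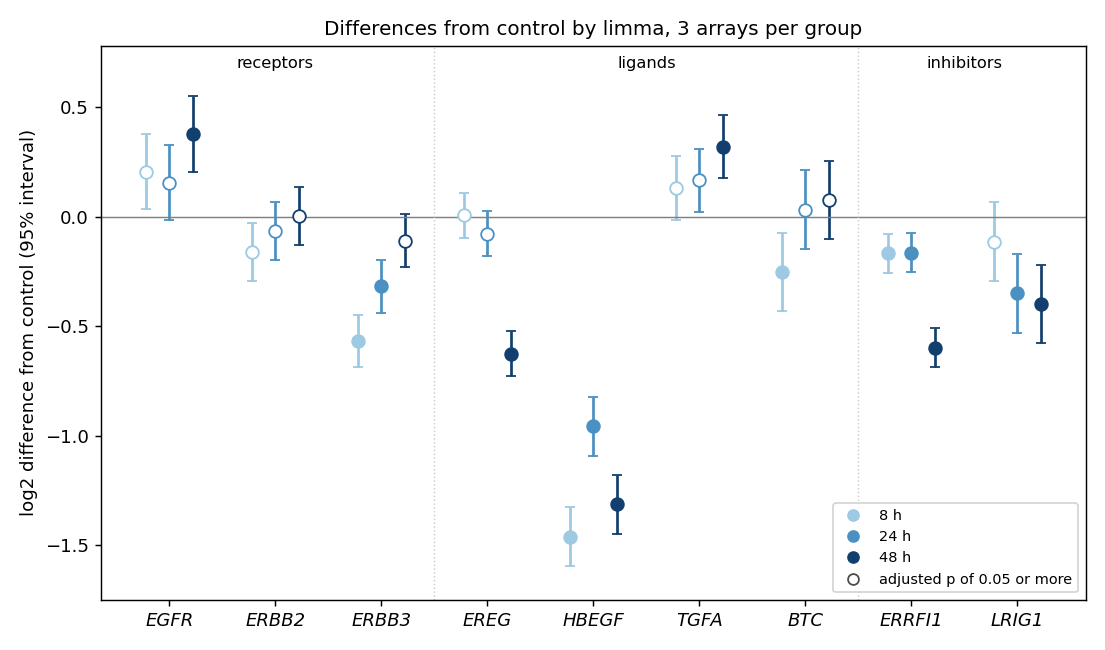
Log2 difference from control with its 95% interval at 8, 24 and 48 h for the 9 measured genes, by role, from 1 limma fit of 12 arrays. Filled points passed an adjusted p under 0.05. HBEGF lies lowest at each time, and EGFR (0.38) and TGFA (0.32) are the filled points above 0, both at 48 h.

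Counted over the 9 measured genes, 4 were called at 8 h against control, namely ERBB3, HBEGF, BTC and ERRFI1, and all 4 were lower. Over all genes 24.2% were called at 8 h, 12.1% as higher and 12.0% as lower. At 24 h 4 genes were called, HBEGF, ERBB3, ERRFI1 and LRIG1, again all lower, against 16.7% of all genes called, 8.69% as higher and 8.02% as lower. At 48 h 6 genes were called. HBEGF, EREG, ERRFI1 and LRIG1 were lower and EGFR and TGFA were higher, against 25.3% of all genes called, 13.0% as higher and 12.3% as lower. The median difference of the 9 genes was -0.16, -0.08 and -0.11 at the 3 times, beside 0.02, 0.02 and 0.01 over all genes. All arrays of a treated group lay on 1 side of all controls for 5 of the 9 genes at 8 h, 6 at 24 h and 7 at 48 h, beside 37.9%, 33.0% and 35.7% of all genes. These 3 comparisons share the control arrays.

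Between treated groups, 3 of the 9 genes rose from 8 to 24 h, namely ERBB3, HBEGF and BTC, and none fell (19.4% of all genes were called, 9.99% as higher and 9.40% as lower). From 24 to 48 h ERBB3 rose and HBEGF, EREG and ERRFI1 fell, with 10.1% of all genes called, 5.26% as higher and 4.86% as lower. At 48 h against 8 h, ERBB3 and BTC were higher and EREG, ERRFI1 and LRIG1 lower, with 29.7% of all genes called, 15.3% as higher and 14.4% as lower. The groups did not overlap for 5, 5 and 7 of the 9 genes in these comparisons, beside 33.3%, 24.0% and 37.8% of all genes. With only 9 genes measured, these counts describe the genes named and carry no test of their own. These genes and the lists below were chosen with earlier results of these data known. Their shares beside those of all genes are therefore descriptions and not independent evidence.

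**Figure D3:**
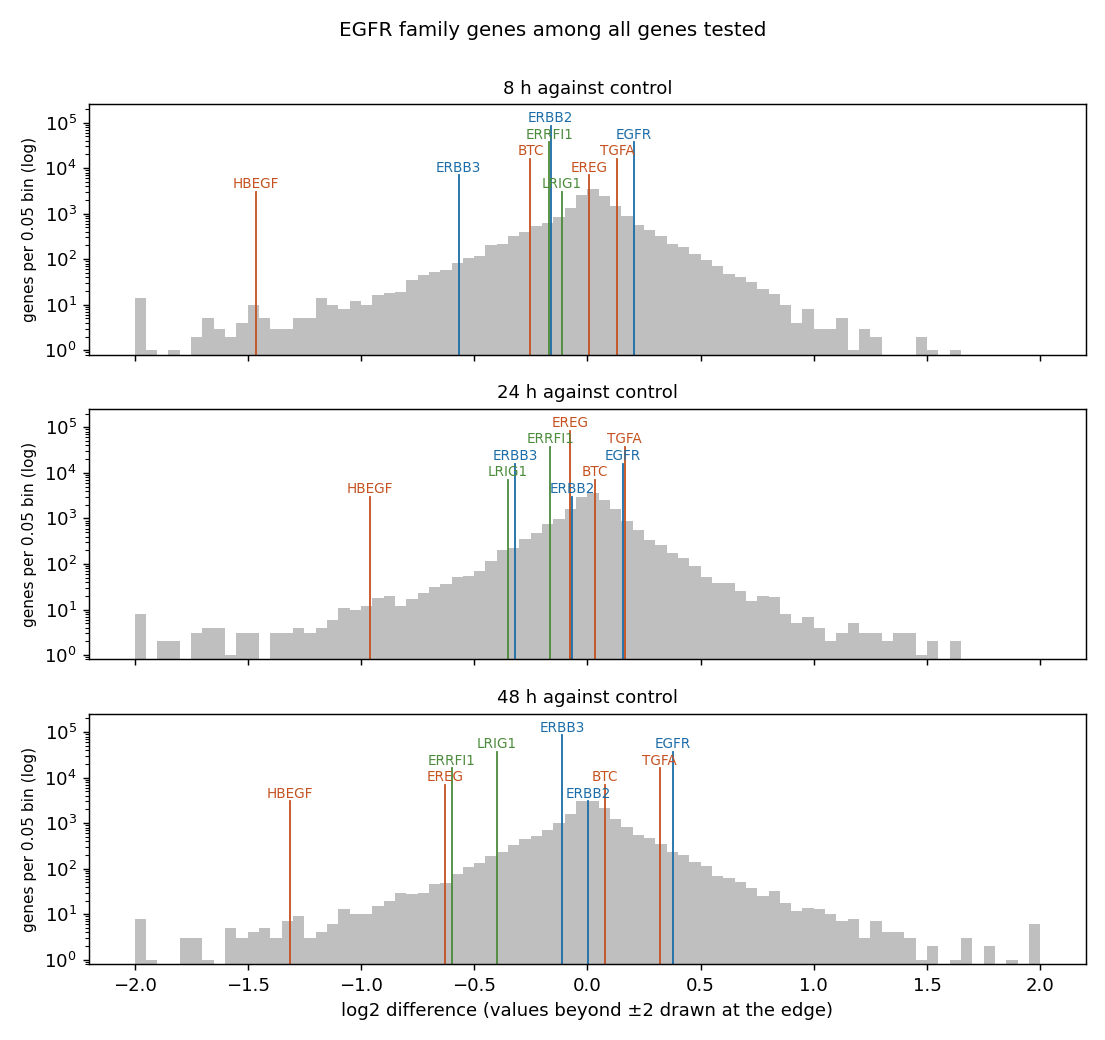
Distribution of the log2 difference from control over the 18377 genes tested at 8, 24 and 48 h, as counts per bin of 0.05 on a log axis. Vertical lines mark the 9 genes of the EGFR family, its ligands (orange), receptors (blue) and inhibitors (green). HBEGF lies in the left tail at each time, and ERBB2 at 0.00 lies at the centre at 48 h.

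The other receptors and ligands of the family showed few differences from control. Of ERBB4, EGF, EPGN and the neuregulins NRG1 to NRG4, 0 of 7 were called at 8 h or 24 h, where none had an unadjusted p under 0.05 in the limma fit (1 was called at 24 h with array weights), and 1 at 48 h. That gene was EGF, the founding ligand of EGFR, which was higher by 0.20 (SE 0.06, adjusted p = 0.0292), a call lost without any of the 3 control arrays or 48 h replicate 1 (adjusted p = 0.0586 to 0.112). With the replicate number as a block, 2 of the 7 were called at 48 h. NRG4 had the largest difference of the list at 48 h without being called (-0.29, SE 0.12, adjusted p = 0.105), and its 48 h arrays lay below all controls. At 48 h against 8 h, NRG4 was lower (-0.39, SE 0.12, adjusted p = 0.0252) and EGF higher (0.19, SE 0.06, adjusted p = 0.0276). The list's median difference was 0.03, 0.03 and 0.02 at the 3 times.

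Of 13 genes that act in the shedding and trafficking of the ligands, 2 were higher and 1 lower at 8 h, 4 and 1 at 24 h, and 6 and 1 at 48 h. The called shares were 23.1%, 38.5% and 53.8%, beside 24.2%, 16.7% and 25.3% of all genes, so the 8 h share is near that of all genes. The list's median was -0.03, 0.06 and 0.01, beside 0.02, 0.02 and 0.01 over all genes. RHBDF2, which encodes iRhom2, the partner that carries the protease ADAM17 to the surface, was higher by 0.32, 0.47 and 0.66 at the 3 times (SE 0.07). RHBDD1, a rhomboid protease gene, was lower by 0.50, 0.44 and 0.54 (SE 0.06). ADAM15, a membrane metalloprotease gene, was higher by 0.54, 0.27 and 0.32 (SE 0.05), and RHBDL2, another rhomboid protease gene, by 0.30 and 0.52 at 24 and 48 h (SE 0.05). ADAM17 itself, the main sheddase of several of these ligands, was not called at any time, with differences of 0.01, 0.05 and -0.18 (SE 0.07).

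Among 25 measured genes that restrain receptors or carry them through endocytosis, 3 were higher and 7 lower at 8 h, 1 and 6 at 24 h, and 3 and 6 at 48 h. Called genes made up 40%, 28% and 36% of these, beside 24.2%, 16.7% and 25.3% of all genes. CBLB, a ubiquitin ligase of activated receptors, was lower by 1.05, 1.02 and 1.03 at the 3 times (SE 0.07). SPRY2, a feedback inhibitor of receptor signalling, was lower by 0.73, 0.98 and 1.10 (SE 0.10). RNF41, which encodes NRDP1, the ubiquitin ligase that sends ERBB3 to breakdown, was lower by 0.61, 0.32 and 0.71 (SE 0.06). LRIG2, a relative of LRIG1, was lower by 0.34 and 0.38 at 8 and 24 h (SE 0.08). The list's median was -0.07, 0.00 and -0.09.

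Of 16 measured genes of adaptors and the RAS to ERK cascade, 1 was higher and 3 lower at 8 h, 3 and 1 at 24 h, and 4 and 1 at 48 h. These are 25%, 25% and 31.25% of the list, beside 24.2%, 16.7% and 25.3% of all genes. In a list this small 1 gene makes up 6.25%. The 8 h share is therefore near that of all genes, and the 48 h share lies within 1 gene of it. MAPK3, the gene of the kinase ERK1, was lower by 0.39 at 8 h and higher by 0.43 at 48 h (SE 0.06). SOS2, a RAS activator, was lower by 0.85 at 8 h (SE 0.14), and GAB2, an adaptor of PI3K, higher by 0.40 and 0.34 at 24 and 48 h (SE 0.06). NF1, a RAS inhibitor, was lower by 0.21, 0.34 and 0.24 (SE 0.07), and the scaffold gene KSR1 was higher by 0.31 and 0.45 at 24 and 48 h (SE 0.07). MAP2K1, which encodes MEK1, was higher by 0.28, 0.34 and 0.40 (SE 0.08). Its call at 8 h ended when control replicate 2 or 3 or 8 h replicate 1 was left out (adjusted p = 0.0717 to 0.0910). Without that 8 h array the log2 difference was 0.17. The call at 24 h ended when control replicate 2 was left out (adjusted p = 0.0570).

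Of 18 measured genes of PI3K, PLCG and other effectors, 2 were higher and 4 lower at 8 h, 1 and 2 at 24 h, and 4 and 3 at 48 h. The called shares were 33.3%, 16.7% and 38.9%, beside 24.2%, 16.7% and 25.3% of all genes, so the 24 h share equals that of all genes. PIK3R3, a regulatory subunit of PI3K, was lower by 0.68, 0.43 and 0.31 (SE 0.05). PIK3R1, another regulatory subunit, was higher by 0.31 at 8 h and lower by 0.25 at 24 h and 0.30 at 48 h (SE 0.07), the call at 24 h ending when control replicate 1 or 2 or 24 h replicate 1 or 3 was left out (adjusted p = 0.113 to 0.145). PLCG1, a phospholipase recruited by EGFR, was higher by 0.33 and 0.50 at 24 and 48 h (SE 0.06). STAT5A was lower by 0.39 at 8 h (SE 0.08) and the kinase gene SRC by 0.28 and 0.30 at 8 and 48 h (SE 0.06).

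Of 21 genes whose transcription follows ERK activity, 14 fell and 1 rose at 8 h, 10 fell and 3 rose at 24 h, and 10 fell and 3 rose at 48 h. Called genes made up 71.4%, 61.9% and 61.9% of the list, beside the same 24.2%, 16.7% and 25.3% of all genes. The falls of EGR1 and SPRY4 at 8 h were known when this list was drawn up, so the direction is not independent evidence. EGR1, an immediate early transcription factor, was 2.44-fold lower at 8 h, 2.11-fold at 24 h and 3.78-fold at 48 h (SE 0.07 on the log2 scale). SPRY4, a feedback inhibitor, was lower by 1.03, 1.18 and 1.26 (SE 0.06), and FOS, a subunit of AP-1, by 0.87, 0.79 and 1.06 (SE 0.05). DUSP6, the phosphatase that inactivates ERK, was lower by 0.67, 0.71 and 1.25 (SE 0.04). The list's median was -0.24, -0.14 and -0.18.

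Other growth factor receptor genes moved further than EGFR, ERBB2 or ERBB3 in some cases. Of 13 measured, 3 were higher and 3 lower at 8 h, 2 and 2 at 24 h, and 4 and 3 at 48 h, or 46.2%, 30.8% and 53.8% of the list against 24.2%, 16.7% and 25.3% of all genes. AXL, the receptor of GAS6, was higher by 0.53 at 8 h, 0.95 at 24 h and 1.62 at 48 h (SE 0.06), a 3.07-fold difference at the last time. FGFR2 was lower by 0.65, 0.80 and 0.85 (SE 0.08) and the ephrin receptor gene EPHB3 by 0.44, 0.62 and 0.78 (SE 0.05).

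**Figure D4:**
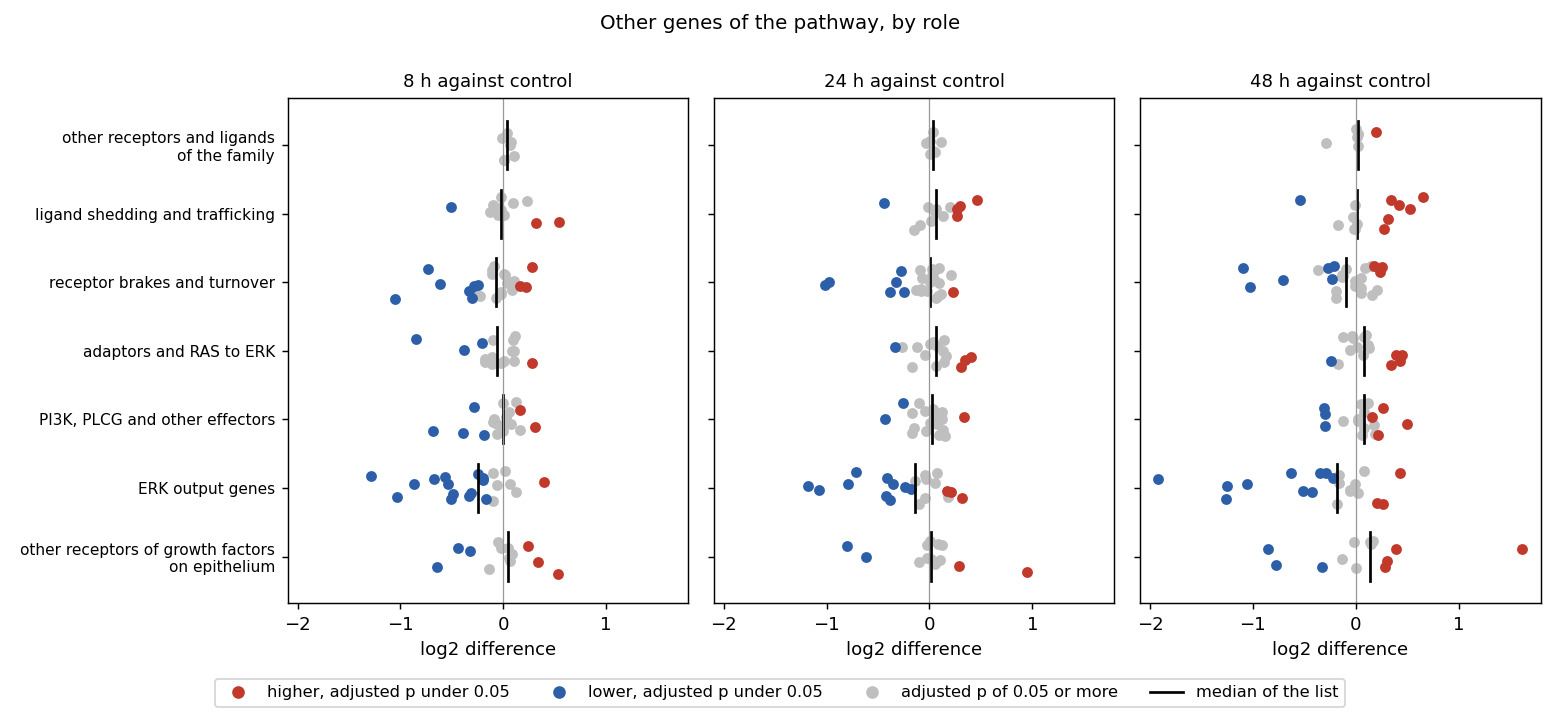
Log2 difference from control of each gene of 7 lists by role in the pathway, at 8, 24 and 48 h. Each point is a gene, coloured where it passed an adjusted p under 0.05, and black lines are list medians. In the list of ERK output genes 14 of 21 points are in the lower colour at 8 h.

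Markers of cell types other than epithelium moved in 2 cases. Of 21 measured markers of fibroblasts, leukocytes and endothelium, the macrophage and lysosome gene CD68 was higher by 0.35, 0.85 and 1.08 at 8, 24 and 48 h (SE 0.06), and the smooth muscle actin gene ACTA2 by 0.24 and 0.59 at 24 and 48 h (SE 0.06). The called share was 0%, 10% and 10% of 10 fibroblast markers at the 3 times. It was 16.7% of 6 leukocyte markers and 0% of 5 endothelium markers at each time. None of these shares exceeded the 24.2%, 16.7% and 25.3% of all genes. Of 12 colon epithelium markers, 1 was higher and 2 lower at 8 h, 3 higher at 24 h and 2 higher at 48 h, among them KRT20 (0.53 and 0.51 at 24 and 48 h, SE 0.05). These are 25%, 25% and 16.7% of the epithelial markers, near or below the 24.2% and 25.3% of all genes at 8 and 48 h. In this list 1 gene makes up 8.33%, so the 24 h share lies within 1 gene of the 16.7% of all genes. The part of these marker differences in the differences of the EGFR family genes was not tested.

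The genes whose values lay closest to those of HBEGF, EREG, ERRFI1 and ERBB3 were named by the root mean square difference over the 12 arrays. PCK2, which encodes the mitochondrial PEP carboxykinase, lay closest to HBEGF (0.13), with FGF19 (0.14), a gut hormone, and SESN2 (0.16), a stress-responsive sestrin. The PCK2 group means were -1.43, -0.73 and -1.36 at 8, 24 and 48 h, with the 24 h mean nearest to the control, as for HBEGF. ALDH1A1, FAF1 and ANP32A lay closest to EREG (0.06, 0.08 and 0.09), SINHCAF, IARS1 and ACADM to ERRFI1 (0.06, 0.06 and 0.07), and KDM4A, IDH1 and WLS to ERBB3 (each 0.06). These are descriptions over arrays that share their groups and controls, and they carry no test.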

How the data were processed

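The deposited table holds 28869 probe sets on 12 arrays as log2 values. Per the submitters' processing notes the authors used RMA, which corrects background, normalizes and summarizes probes, and build hg19, both without further detail. The control median was 0 in all 28869 probe sets, a centring that the sources used here do not describe. Log base 2 was taken from RMA. Signal over background is unknown, so the precision rests on 3 arrays per group.

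Probe sets with 1 gene symbol (19310) were averaged per gene. Those with several (1752) or none named here (7807) were left out. limma 3.58.1 in R 4.3.3 fitted all 12 arrays with a mean per group (8 residual and 4.71 prior degrees of freedom), two-sided, and was tested on simulated data. The members and lists were chosen with earlier results of these data known. Of the lists, up to 3 called genes with the largest change per comparison with control were named. ADAM17, the marker genes and the neighbours of EREG and BTC were named outside that rule, after their values were seen. Alternatives were array centring, replicate block, array weights, robust prior, fits of 2 groups, probe set choices, stricter thresholds and leaving out each array. Deviations of same-numbered arrays correlated at -0.45 to 0.47 (mean 0.08), with 11 of 18 pairs over 0.1, against 14 of 36 pairs of other numbers (mean -0.05). Pairing was taken to need all 18 over 0.1, so the fit has no block, although all 3 pairs of control and 48 h exceeded it (0.35, 0.12 and 0.46). This rule is strict, and failing it does not show that pairing was absent. Of the 127 list genes 113 were measured. Of the 10 members, 9 had a RefSeq start-site sequence. The 7 motifs were searched on both strands. Figures were drawn with Python 3.11.15 and matplotlib 3.10.9.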

Additional observations from a re-analysis of the deposited data

Results flagged for a closer look

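The difference from control changed between 2 times, by limma's test of that change, in 6 of the 9 measured genes. From 8 to 24 h it changed by 0.25 for ERBB3, 0.50 for HBEGF and 0.28 for BTC, all toward or past the control. From 24 to 48 h it changed by 0.21 for ERBB3, -0.55 for EREG, -0.36 for HBEGF and -0.43 for ERRFI1. From 8 to 48 h it changed by 0.46 for ERBB3, -0.63 for EREG, 0.33 for BTC, -0.43 for ERRFI1 and -0.29 for LRIG1. The change for LRIG1 was lost without 8 h replicate 1 (adjusted p = 0.0605), without 48 h replicate 1 (0.0579) or in a fit of only these 2 groups (0.0527). HBEGF and ERBB3 moved together from 8 to 24 h and in opposite directions from 24 to 48 h. The ERBB3 rise from 24 to 48 h lost its call in 7 of 21 alternatives, stricter thresholds included. The BTC rise from 8 to 24 h lost its call in 6 of the 21.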

How the results depend on the processing

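Stricter thresholds lowered the counts by construction. With a fold of at least 1.5 also required, 1 gene of the family was called at 8 h, 1 at 24 h and 3 at 48 h against control, 0 from 8 to 24 h, 0 from 24 to 48 h and 1 at 48 h against 8 h. At an adjusted p under 0.01, 2 were called at 24 h and 5 by the F test. With array weights, which gave 48 h replicate 2 a weight of 6.52 and replicate 3 one of 0.199, 8 were called at 48 h against 8 h, and over all genes 6079 instead of 3070 at 24 h, 7455 instead of 4649 at 48 h, 5901 instead of 1860 from 24 to 48 h and 8569 instead of 5464 at 48 h against 8 h. The cause was not tested. Leaving out each array in turn gave 3 to 5, 3 to 4 and 6 to 6 called genes at 8, 24 and 48 h, 2 to 4 from 8 to 24 h, 3 to 5 from 24 to 48 h, 4 to 7 at 48 h against 8 h and 7 to 9 by the F test. With the replicate number as a block, 5, 4 and 6 were called at 8, 24 and 48 h, and no call of the 9 genes at 48 h against control changed. EGFR at 8 h (adjusted p = 0.0395), LRIG1 from 8 to 24 h (0.0483) and TGFA at 48 h against 8 h (0.0304) then passed in limma, and all genes called numbered 4718, 3390 and 5006. Of the differences that changed sign, none was called. EREG at 8 h was -0.0108 with centred arrays, BTC at 24 h -0.0036 with array weights, and ERBB2 at 48 h -0.0032 and -0.0333 with these. Leaving out each array gave -0.0124 to 0.0354 for EREG at 8 h, -0.0309 to 0.0846 for BTC at 24 h, -0.0131 to 0.137 at 48 h and -0.0446 to 0.107 from 24 to 48 h, -0.0594 to 0.0513 for ERBB2 at 48 h, and from 8 to 24 h -0.130 to 0.0166 for EGFR, -0.0136 to 0.0261 for ERRFI1 and -0.0127 to 0.102 for TGFA. Signal over background is unknown here, so a small difference may lie in a probe set near background.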
